A study of Mus musculus with 6 samples.

Results

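The secreted ribonucleases of the RNase A superfamily were followed in IL-4-treated bone marrow-derived macrophages (BMDMs). The macrophages came from mice with or without myeloid deletion of ATP-citrate lyase (Acly), the cytosolic enzyme that makes acetyl-CoA from citrate. The 8 genes are the eosinophil-associated ribonucleases *Ear1*, *Ear2*, *Ear6* and *Ear10*, the angiogenins *Ang* and *Ang2*, and *Rnase4* and *Rnase6*. They were chosen by name, out of 24445 genes in the count table, and 5 of the 8 had enough reads to be tested. *Ear2* was lower in AclyM-KO than in Ctrl macrophages, at 55.6% of the Ctrl mean, and *Ang2* was higher, at 202%. *Rnase4*, *Ang* and *Rnase6* were lower by a smaller fold, at 79.7%, 83.0% and 75.1% of Ctrl. The results for *Ear2* and *Ang2* rest on few counts. Both lost significance with DESeq2 and in 4 of 6 fits that each left out 1 library. Of the tested members, only *Rnase4* kept an adjusted p under 0.05 in all 15 alternatives.

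AclyM-KO mice carry floxed *Acly* alleles and *Lyz2*-Cre, which is active in myeloid cells, and Ctrl mice are Acly fl/fl littermates. The mice were female and on a C57Bl/6J background, and their age was not given in the sources used here. Bone marrow was cultured for 7 days, and all 6 macrophage cultures, 3 in each group, then received 100 U/mL IL-4 for 24 h. Both groups therefore carry the floxed alleles and the cytokine, and the groups are labelled by genotype. *Lyz2*-Cre is in AclyM-KO only, so loss of *Acly*, Cre and any difference between cultures or mice cannot be told apart. The methods call the libraries biological replicates, whereas a figure legend describes technical replicates from pooled mice, so p-values measure only the spread between these libraries, which may be technical.

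On the rows used, 1 per named gene, the libraries held 12151975 to 14739689 counts in Ctrl and 14745614 to 15587283 in AclyM-KO. The counts of *Acly*, the targeted gene, were 4917, 3925 and 4606 in Ctrl, against 2140, 2078 and 1978 in AclyM-KO. In CPM, read counts scaled to the size of the library, this was 41.4% of Ctrl, with an adjusted p of 5.22e-10 in edgeR's quasi-likelihood test. The loxP sites flank an exon of *Acly*, whereas the counts cover the whole transcript. The counts therefore do not measure how much intact *Acly* transcript remains. The 6 macrophage markers were abundant in both groups, with summed levels of 7247 to 7561 CPM in Ctrl and 6946 to 7310 CPM in AclyM-KO. They did not move together. Of the 6, *Mertk*, an efferocytosis receptor gene, was called lower at 60.4% of Ctrl (log2 fold change -0.73, edgeR adjusted p = 2.56e-07). At an adjusted p under 0.05 without the fold limit, *Csf1r* (-0.20) and *Itgam* (-0.28) were also lower and *Adgre1* (0.33) was higher, while *Cd68* and *Fcgr1* did not pass. In bulk RNA, fewer cells of a type and less RNA per cell cannot be told apart.

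RNase A family proteins are small secreted enzymes that cleave single-stranded RNA. The Ear proteins were found in eosinophil granules, and rodents carry a large and recently expanded cluster of *Ear* genes, some of which macrophages transcribe. *Ear2* belongs to the genes that are widely used to follow alternative activation of mouse macrophages. Angiogenin promotes vessel growth and cleaves transfer RNA in stressed cells, RNase 4 is encoded at the same locus, and RNase 6 is an antimicrobial ribonuclease of myeloid cells.

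All 8 genes lie on chromosome 14 (GRCm38, positions from RefSeq). *Ear1* (43818765 to 43819639), *Ear10* (43922898 to 43923596) and *Ear2* (44102654 to 44103531) form the first cluster. The second holds *Rnase4* (51091077 to 51106151), *Ang* (51091077 to 51102009), *Rnase6* (51123908 to 51132187), *Ang2* (51195486 to 51195923) and *Ear6* (51853768 to 51854643). *Ear1*, *Ear10* and *Ang2* are on the minus strand and the others on the plus strand. *Rnase2a* (51255261 to 51256112, minus strand), whose older symbol is *Ear11*, is a related eosinophil-type ribonuclease in the second cluster and serves below as a comparison.

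The promoters of the *Ear* genes are close copies, which is why those of the detected gene *Ear2*, its undetected neighbour *Ear1* and the abundant relative *Rnase2a* are shown. They are RefSeq sequences (GRCm38.p6) of the 250 bases before each start, 5′ to 3′ on the strand of the gene, at chr14:44102404-44102653 for *Ear2*, chr14:43819640-43819889 for *Ear1* and chr14:51256113-51256362 for *Rnase2a*. Capitals mark bases that differ from or are missing in the *Ear2* window of 300 bases, which also holds the first 50 bases after the start. The last bases shown for *Ear1* and *Rnase2a* were aligned to *Ear2* bases after its start, which are not printed. Bases deleted relative to *Ear2* are not marked.
Ear2: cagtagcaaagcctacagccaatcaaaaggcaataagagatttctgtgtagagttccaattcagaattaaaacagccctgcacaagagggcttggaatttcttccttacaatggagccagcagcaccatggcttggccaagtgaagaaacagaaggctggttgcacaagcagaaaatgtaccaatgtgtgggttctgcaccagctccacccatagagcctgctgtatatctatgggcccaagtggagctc
Ear1: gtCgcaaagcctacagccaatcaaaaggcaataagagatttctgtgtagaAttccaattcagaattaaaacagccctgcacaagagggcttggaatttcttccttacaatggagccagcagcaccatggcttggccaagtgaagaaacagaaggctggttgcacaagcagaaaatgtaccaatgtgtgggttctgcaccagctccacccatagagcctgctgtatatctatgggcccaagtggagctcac
Rnase2a: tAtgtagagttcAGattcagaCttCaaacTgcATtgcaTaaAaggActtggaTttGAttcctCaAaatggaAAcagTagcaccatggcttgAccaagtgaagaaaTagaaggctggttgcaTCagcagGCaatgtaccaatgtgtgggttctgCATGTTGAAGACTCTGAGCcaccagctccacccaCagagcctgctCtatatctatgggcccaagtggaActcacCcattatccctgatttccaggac

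Over windows of 300 bases that also include the first 50 bases after the start, the *Ear1* promoter matched that of *Ear2* at 294 of 297 aligned bases (99.0%), *Ear10* at 274 of 294 (93.2%), *Ear6* at 256 of 276 (92.8%) and *Rnase2a* at 223 of 255 (87.5%). *Rnase4* and *Ang* have 1 RefSeq start in common and thus the same promoter window, shown because both genes were lower in AclyM-KO. Its 250 bases before the start lie at chr14:51090827-51091076 on the plus strand.
Rnase4 and Ang: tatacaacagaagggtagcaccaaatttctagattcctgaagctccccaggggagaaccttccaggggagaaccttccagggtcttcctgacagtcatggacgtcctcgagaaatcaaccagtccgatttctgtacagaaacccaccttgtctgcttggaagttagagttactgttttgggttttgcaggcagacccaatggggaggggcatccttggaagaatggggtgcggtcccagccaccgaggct

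STAT6 is the transcription factor activated by the IL-4 receptor, and its sites have the form TTCNNNNGAA, with TTCNNNGAA as the shorter STAT form. Both letter patterns equal their own reverse complement, so a search on 1 strand covers both. Neither was present in the window of any of the 7 members with a RefSeq promoter entry, which leaves out *Ang2*. Across 32851 promoter windows of the same length, 6.95% held TTCNNNNGAA and 8.30% held TTCNNNGAA. No match says only that these letters are not in these windows.

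Across 12023 tested genes, calls made up 2.57% in the lower and 2.98% in the higher direction for AclyM-KO, where a call needs an adjusted p under 0.05 and a log2 fold change beyond 0.58. At an adjusted p under 0.05 with any fold change, 12.6% were lower and 12.4% higher. CPM values of the groups did not overlap for 19.8% of tested genes with AclyM-KO lower and for 20.5% with AclyM-KO higher. Of the 8 members, 1 was called lower (*Ear2*) and 1 higher (*Ang2*). All 5 tested members had an adjusted p under 0.05, 4 lower and 1 higher, and in none of these 5 did the groups overlap. The median log2 fold change of the tested members was -0.33, beside 0.0014 over all tested genes. Because *Rnase4* and *Ang* share reads, these members do not count as separate observations.

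**Figure D1:**
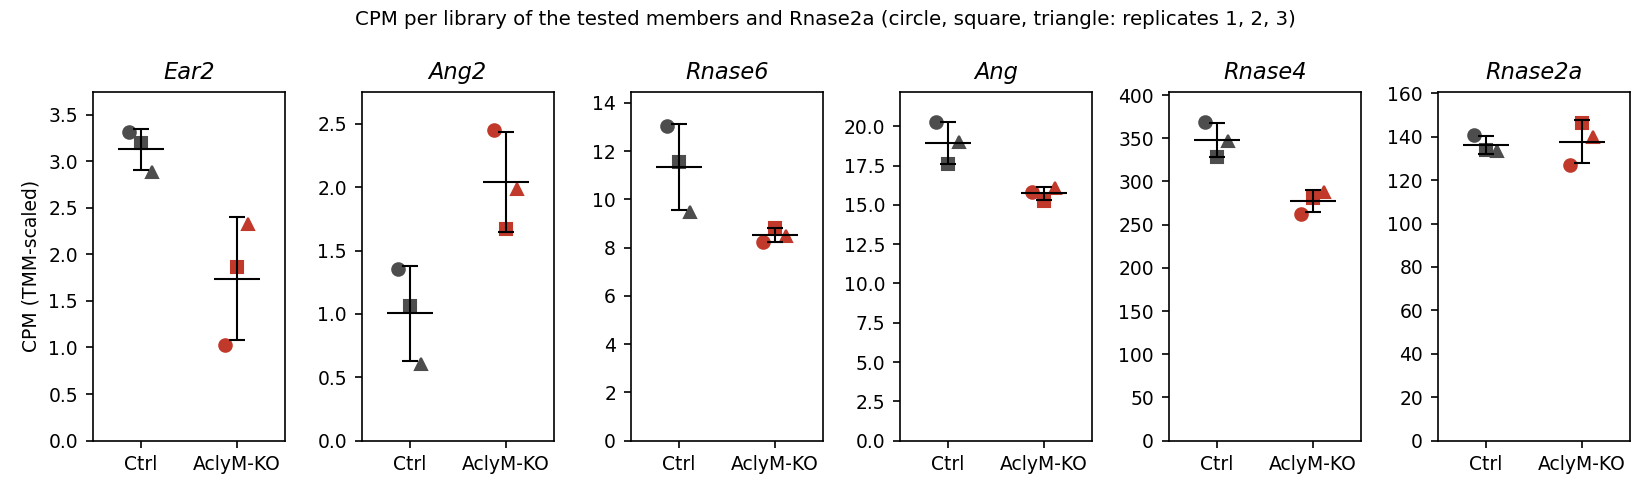
CPM (y axis, TMM-scaled, from 0, a separate scale per panel) of the 5 tested members and *Rnase2a* in each of the 3 Ctrl and 3 AclyM-KO libraries, with the bar at the group mean and SD as error. *Ear2*, *Rnase4*, *Ang* and *Rnase6* lie lower in every AclyM-KO library than in any Ctrl library and *Ang2* lies higher, while the *Rnase2a* values of 127 to 146 CPM in AclyM-KO span those of Ctrl.

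In Ctrl, the counts of *Ear2* were 49, 39 and 38, against 15, 29 and 34 in AclyM-KO. Scaled to library size these were 3.31, 3.19 and 2.88 CPM in Ctrl and 1.02, 1.87 and 2.33 CPM in AclyM-KO. The Ctrl values lay close together, and AclyM-KO replicate 1 was the lowest of the 6. The means were 3.13 ± 0.220 CPM (SD, n = 3) and 1.74 ± 0.662 CPM (SD, n = 3). The log2 fold change was -0.84 (SE 0.27, 95% interval -1.42 to -0.27, edgeR adjusted p = 0.0326). Without AclyM-KO replicate 1 it was -0.58 with an adjusted p of 0.135.

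*Ear1* and *Ear10* had no count in any library, and *Ear6* had 1 count in Ctrl replicate 1 and 1 in AclyM-KO replicate 2. A count of 0 allows up to 3 counts per library, which corresponds to 0.193 to 0.245 CPM, and such floors cover counting error only. *Ear1*, *Ear6* and *Ear10* were therefore not above this floor in the deposited counts of either genotype, and no fold change is given for them. Summing all 4 *Ear* genes into 1 row gave a log2 fold change of -0.84 (SE 0.27, edgeR adjusted p = 0.0341), since nearly all of its counts are those of *Ear2*.

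The *Ear* genes are so alike that reads can be hard to place. Of the 670 windows of 50 bases in the *Ear2* transcript (719 bases, 2 exons), 278 (41.5%) occurred without a mismatch in a transcript of another gene, on either strand. These were mainly *Ear10* (174 windows), *Ear1* (158) and the pseudogene *Ear-ps2* (100). For *Ear1* 57.4% and for *Ear10* 56.2% of windows were shared, against 1.36% for *Ear6*. Transcript identity to *Ear2* was 96.8% for *Ear1*, 97.0% for *Ear10*, 89.2% for *Ear6* and 82.2% for *Rnase2a*. The sources used here give neither the read length nor the rule for reads that align to several places, so the *Ear2* counts, and the zeros of *Ear1* and *Ear10*, are uncertain as to the copy they came from.

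**Figure D2:**
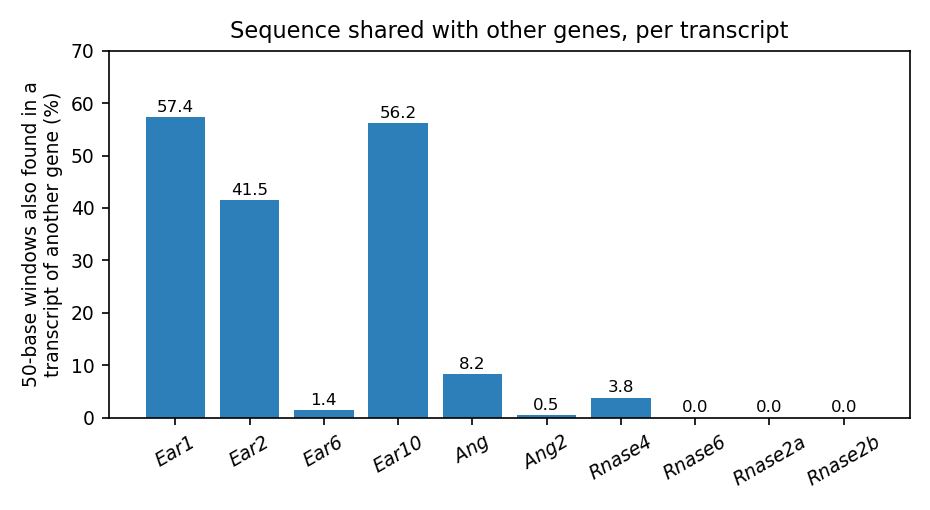
Share (y axis, %) of all 50-base windows of each member transcript, and of *Rnase2a* and *Rnase2b*, that also occur in a transcript of another gene. *Ear1*, *Ear10* and *Ear2* stand at 57.4%, 56.2% and 41.5%, *Ang* at 8.25% and *Rnase4* at 3.81%, and *Rnase6*, *Rnase2a* and *Rnase2b* at 0.

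*Rnase2a*, which shares no window of 50 bases with another gene, was far more abundant than *Ear2* and did not pass the test. Its counts were 2085, 1636 and 1758 for Ctrl, against 1858, 2274 and 2043 for AclyM-KO. The means were 136.0 ± 4.19 CPM and 138 ± 9.98 CPM (SD, n = 3 each), and the groups overlapped. The log2 fold change was 0.017 (SE 0.057, 95% interval -0.10 to 0.14, edgeR adjusted p = 0.859). The number of *Ear2* counts per 1000 *Rnase2a* counts within a library was 23.5, 23.8 and 21.6 in Ctrl and 8.07, 12.8 and 16.6 in AclyM-KO. The groups did not overlap in this ratio, and an exact two-sided permutation test gave p = 0.1, the smallest that 3 against 3 libraries allow.

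The granule protein transcripts of eosinophils were at or near 0 in both genotypes, whereas 2 receptor genes of the marker list were detected. Of 8 eosinophil markers, *Prg3* and *Il5ra* had no count, *Epx*, the eosinophil peroxidase, had 1 count in all 6 libraries together, and *Prg2*, the major basic protein, had 5 counts in Ctrl and 4 in AclyM-KO. *Siglecf* had 72 counts in Ctrl and 89 in AclyM-KO, or 1.81 ± 0.289 and 1.99 ± 0.294 CPM (SD, n = 3 each). Without scaling to transcript length, these values are near the CPM of *Ear2* in AclyM-KO. *Ccr3*, a chemokine receptor gene, had 845 and 941 counts, or 21.2 ± 3.26 and 21.0 ± 3.54 CPM (SD, n = 3 each), and both genes overlapped between groups. The summed level of the list was 21.1 to 27.2 CPM in Ctrl and 20.1 to 27.4 CPM in AclyM-KO, most of it from *Ccr3*. Of the 2 markers tested, 0 were called by edgeR and 0 had an unadjusted p under 0.05.

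*Rnase4* was the most abundant member. Ctrl libraries gave 5452, 4015 and 4568 counts and AclyM-KO libraries 3849, 4372 and 4199, or 368, 328 and 347 CPM against 263, 281 and 288 CPM. Each AclyM-KO library was below each Ctrl library, at means of 277 ± 13.1 CPM and 348 ± 20 CPM (SD, n = 3 each). The log2 fold change was -0.33 (SE 0.054, 95% interval -0.44 to -0.21, edgeR adjusted p = 3.87e-04), short of the limit of 0.58.

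For *Ang*, which encodes angiogenin, the counts were 300, 215 and 250 in Ctrl, against 232, 237 and 235 in AclyM-KO. In CPM these were 20.3, 17.6 and 19.0 against 15.8, 15.2 and 16.1, so the groups were separate though the highest AclyM-KO and lowest Ctrl values were close. The means were 18.9 ± 1.34 CPM and 15.7 ± 0.437 CPM (SD, n = 3 each). The log2 fold change was -0.27 (SE 0.092, 95% interval -0.47 to -0.077, edgeR adjusted p = 0.0409).

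*Rnase4* and *Ang* are transcribed from a shared locus with 2 alternative first exons, each spliced to a second exon that belongs to 1 gene and holds its whole coding sequence. The bases both genes have in common are 104 in the upstream first exon (51091150 to 51091253) and 115 in the downstream one (51096359 to 51096473). The count table has a row for each first exon of each gene, and the row with the upstream exon, which had more counts, was used. That row exceeded the row with the downstream exon by 48, 14 and 21 counts in Ctrl and by 32, 44 and 27 in AclyM-KO. These differences were the same for *Rnase4* and for *Ang* in all 6 libraries, so reads in the shared exons were counted on both genes.

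**Figure D3:**
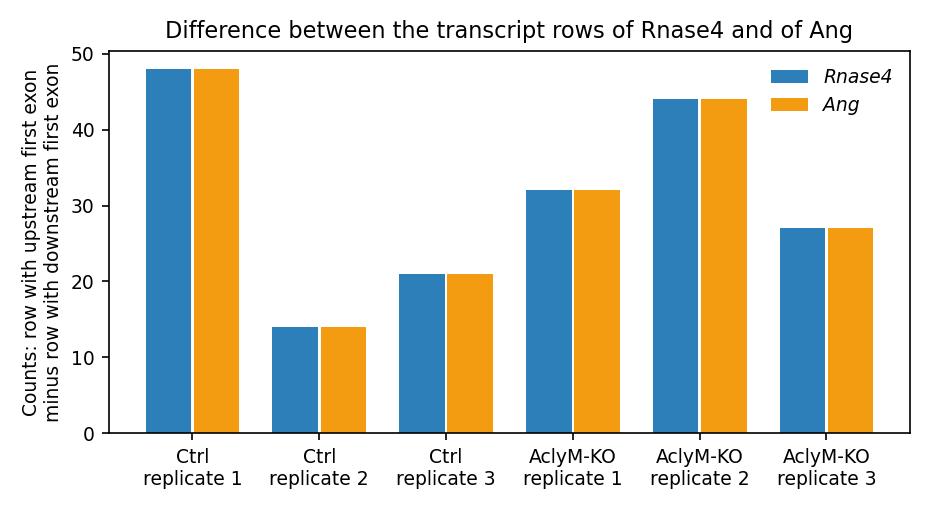
Counts of the row with the upstream first exon minus counts of the row with the downstream first exon (y axis) for *Rnase4* and *Ang* in each of the 6 libraries. The paired bars have the same height in every library, from 14 to 48 counts.

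The difference was 0.349% to 1.01% of the *Rnase4* counts of a library and 6.51% to 18.6% of the *Ang* counts. The 2 groups overlapped in it. It is net of reads on the downstream first exon, so the counts shared on the upstream row are at least this many. With the downstream row, in which Ctrl libraries gave 252, 201 and 229 *Ang* counts and AclyM-KO libraries 200, 193 and 208, the log2 fold change of *Ang* was -0.34 (edgeR adjusted p = 0.0173). *Ang* counts per 1000 *Rnase4* counts were 55.0, 53.5 and 54.7 in Ctrl and 60.3, 54.2 and 56.0 in AclyM-KO. The groups overlapped in this ratio (exact two-sided permutation p = 0.3), so a difference between the changes of the pair was not detected. Reads of the shared exons enter both counts and can hold the ratio level, so it cannot separate the 2 genes.

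The counts of *Rnase6* were 193, 141 and 125 in Ctrl, against 121, 137 and 124 in AclyM-KO. In CPM these were 13.0, 11.5 and 9.49 against 8.25, 8.81 and 8.50. The Ctrl libraries were spread more widely than the AclyM-KO libraries, and Ctrl replicate 3 lay nearest to them. The means were 11.4 ± 1.78 CPM and 8.52 ± 0.281 CPM (SD, n = 3 each), with a log2 fold change of -0.42 (SE 0.13, 95% interval -0.70 to -0.13, edgeR adjusted p = 0.0328). *Rnase6* shares no 50-base window with another gene. Per 1000 *Rnase4* counts it had 35.4, 35.1 and 27.4 in Ctrl and 31.4, 31.3 and 29.5 in AclyM-KO, with overlap and an exact two-sided permutation p of 0.6.

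*Ang2*, a rodent paralog of angiogenin in a single annotated exon of 438 bases, moved in the other direction. Its counts were 20, 13 and 8 in Ctrl, against 36, 26 and 29 in AclyM-KO, or 1.35, 1.06 and 0.607 CPM against 2.46, 1.67 and 1.99 CPM. The lowest AclyM-KO library was above the highest Ctrl library. The means were 1.01 ± 0.375 CPM and 2.04 ± 0.394 CPM (SD, n = 3 each), and the log2 fold change was 0.99 (SE 0.32, 95% interval 0.31 to 1.68, edgeR adjusted p = 0.0337).

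Aligned over the *Ang2* transcript, *Ang* and *Ang2* were identical at 386 of 438 bases (88.1%). They had no window of 50 bases in common, and 0.514% of *Ang2* windows occurred in *Ang5*, which had no count. Within a library, *Ang2* had 66.7, 60.5 and 32 counts per 1000 *Ang* counts in Ctrl and 155, 110 and 123 in AclyM-KO, without overlap (exact two-sided permutation p = 0.1, the smallest possible). Against *Rnase4* the ratio was likewise separate, at 1.75 to 3.67 per 1000 counts in Ctrl and 5.95 to 9.35 in AclyM-KO. In CPM, every AclyM-KO library was above every Ctrl library for *Ang2* and below it for *Ang* and *Rnase4*. Both ratios therefore had to separate, and they add no evidence to the results of the single genes.

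**Figure D4:**
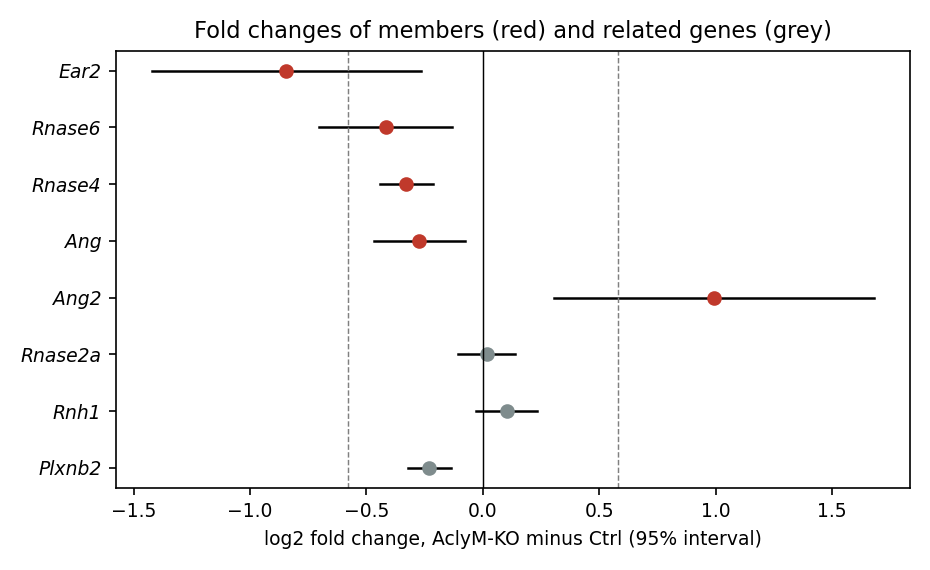
Log2 fold change (x axis, AclyM-KO minus Ctrl, edgeR) with its 95% interval for the 5 tested members in red and for *Rnase2a*, *Rnh1* and *Plxnb2* in grey. The intervals of *Ear2*, *Rnase6*, *Rnase4* and *Ang* lie below 0 and that of *Ang2* above it, while that of *Rnase2a* runs from -0.10 to 0.14.

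The size of each of these changes depended on single libraries to differing degrees. *Rnase4* kept an adjusted p under 0.05 in all 6 fits that left out 1 library, with log2 fold changes of -0.37 to -0.29. *Ear2* ranged from -1.10 to -0.58 and lost its call without Ctrl replicate 1 (adjusted p = 0.0794), Ctrl replicate 3 (0.0517), AclyM-KO replicate 1 (0.135) or AclyM-KO replicate 2 (0.0737). *Ang2* ranged from 0.73 to 1.28 and lost its call without Ctrl replicate 2 (0.0536), Ctrl replicate 3 (0.140), AclyM-KO replicate 1 (0.132) or AclyM-KO replicate 3 (0.0753). *Rnase6* ranged from -0.54 to -0.30, with adjusted p-values over 0.05 without Ctrl replicate 1 or any 1 AclyM-KO library. *Ang* ranged from -0.33 to -0.22 and stayed under 0.05 only without Ctrl replicate 2. With DESeq2 in place of edgeR, the adjusted p was 0.0502 for *Ear2*, 0.0686 for *Ang2*, 0.0545 for *Rnase6* and 0.102 for *Ang*, so neither *Ear2* nor *Ang2* was called.

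**Figure D5:**
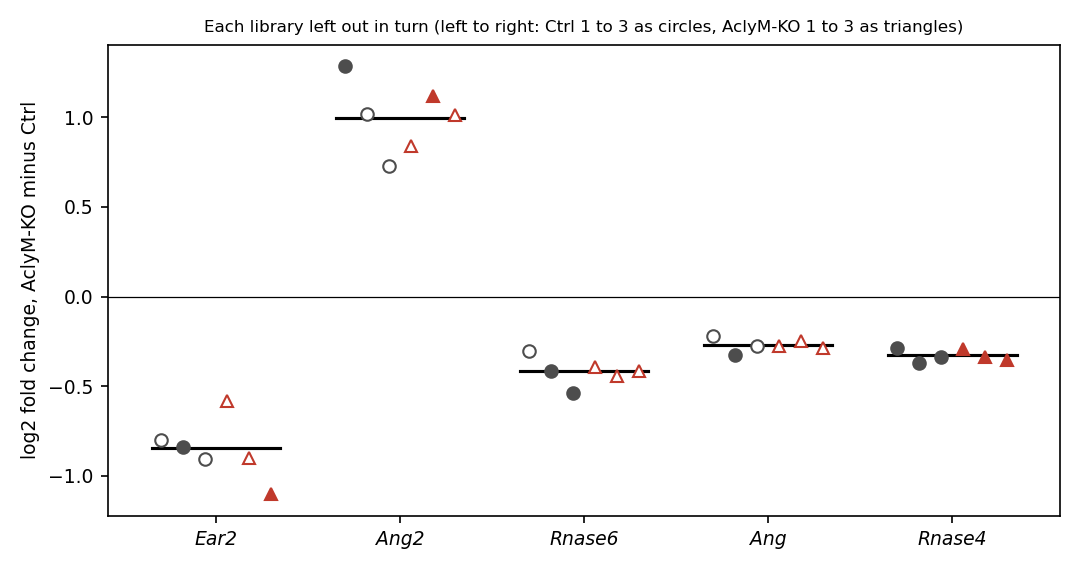
Log2 fold change (y axis, AclyM-KO minus Ctrl, edgeR) of the 5 tested members when each library is left out in turn, circles for Ctrl replicates 1 to 3 and triangles for AclyM-KO replicates 1 to 3, filled where the adjusted p is under 0.05, with a line at the value from all 6 libraries. No point crosses 0, and *Rnase4* spans -0.37 to -0.29 while *Ear2* spans -1.10 to -0.58.

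Levels of different genes are compared here as CPM per kilobase of transcript. In Ctrl the order was *Rnase4* at 229 ± 13.2, *Rnase2a* at 197 ± 6.08, *Ang* at 26 ± 1.84, *Rnase6* at 10.6 ± 1.66, *Ear2* at 4.35 ± 0.306 and *Ang2* at 2.30 ± 0.857 CPM per kilobase (SD, n = 3). Each neighbouring pair in this order was separate in Ctrl. In AclyM-KO the order of the levels was *Rnase2a* at 199.5 ± 14.5, *Rnase4* at 183 ± 8.61, *Ang* at 21.6 ± 0.600, *Rnase6* at 7.95 ± 0.262, *Ang2* at 4.65 ± 0.900 and *Ear2* at 2.42 ± 0.921. Here *Rnase2a* and *Rnase4* overlapped, and *Ang2* and *Ear2* had changed places, with 3.82 to 5.61 against 1.42 to 3.24 CPM per kilobase in single libraries. Other genes share 41.5% of *Ear2* windows, and reads there may have been lost or placed on another copy. The order of *Ear2* and *Ang2* is therefore uncertain.

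The rest of the superfamily was covered in part. Of 21 further names, 12 matched a gene in the table, 6 of these had no count (*Ear14*, *Ang4*, *Ang5*, *Rnase9*, *Rnase11* and *Rnase13*), and *Rnase2a* was tested. *Rnase2b*, whose older symbol is *Ear5*, gave counts of 0, 0 and 1 in Ctrl, against 8, 4 and 1 in AclyM-KO, with overlap and too few reads for the test. The other matched genes had at most 3 counts over the 6 libraries. Of the 9 names without a match, *Ear5* and *Ear11* are older symbols of *Rnase2b* and *Rnase2a*, and the others, among them *Ear12*, which is used as a marker of IL-4-treated macrophages, were not analysed here. The 117 table rows without a gene name were not used, so the levels above do not cover every *Ear* gene these macrophages may express.

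The transcripts of 2 proteins that bind these enzymes were abundant in both groups. *Rnh1*, the cytosolic ribonuclease inhibitor that binds RNase A family proteins tightly, had a log2 fold change of 0.10 (SE 0.062, edgeR adjusted p = 0.240), from 375 ± 38.7 CPM to 403 ± 3.00 CPM (SD, n = 3 each). *Plxnb2*, a receptor for angiogenin, was lower, from 466 ± 5.17 to 398 ± 8.83 CPM, with a log2 fold change of -0.23 (SE 0.043, edgeR adjusted p = 0.00115) and no overlap between groups.

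The lysosomal nucleases and RNA sensors, which break down or detect nucleic acids inside the cell, form the next list. Of its 9 tested genes, 0 were called by edgeR, 4 had an unadjusted p under 0.05, and the same number, all lower, had an adjusted p under 0.05. They were the exonucleases *Pld3* (log2 fold change -0.28) and *Pld4* (-0.40), the acid nuclease *Dnase2a* (-0.19) and *Unc93b1* (-0.19), which carries nucleic acid-sensing Toll-like receptors to endolysosomes. The adjusted p of *Dnase2a* was 0.0594 without AclyM-KO replicate 3, and that of *Unc93b1* was just over 0.05 without Ctrl replicate 1, 0.0727 without AclyM-KO replicate 1 and 0.0829 without AclyM-KO replicate 2. The receptors *Tlr7*, *Tlr8* and *Tlr13* had log2 fold changes of 0.056, 0.069 and 0.029, with adjusted p-values over 0.05. The median of the list was 0.029, beside 0.0014 for all tested genes. Of 6 tested secreted defence genes, 1 was called lower (*Lyz2*, a lysozyme gene that is also the Cre driver locus, at -0.67) and 0 higher. At an adjusted p under 0.05 with any fold change, 1 was lower and 1 higher, the latter being its near copy *Lyz1* (0.44, edgeR adjusted p = 0.0444), which was over 0.05 with DESeq2 and without Ctrl replicate 2, Ctrl replicate 3, AclyM-KO replicate 1 or AclyM-KO replicate 3. The median of the list was 0.20.

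Among the markers of other myeloid types, 3 neutrophil genes and the mast cell gene *Kit* were called higher in AclyM-KO. The summed level of 9 neutrophil markers was 30.8 to 32.2 CPM in Ctrl and 59.8 to 64.5 CPM in AclyM-KO, and 3 of the 4 tested were called higher (*Mmp8*, *S100a8* and *S100a9*), while *Ly6g* had 1 count in Ctrl and none in AclyM-KO and *Elane* had 2 counts in Ctrl and 1 in AclyM-KO. *Mmp8* held the largest part of the neutrophil sum, at 16.9 ± 2.18 CPM in Ctrl and 40.1 ± 1.77 CPM in AclyM-KO (SD, n = 3 each). Without Ctrl replicate 3 the call of *S100a9* was lost (adjusted p = 0.0728). The 6 mast cell and basophil markers summed to 2.97 to 4.63 CPM in Ctrl and 7.47 to 8.60 CPM in AclyM-KO. The rise in this sum comes from *Kit*, at 3.19 ± 0.829 CPM in Ctrl and 7.61 ± 0.618 CPM in AclyM-KO (SD, n = 3 each). *Cpa3* had 26 counts in Ctrl and 25 in AclyM-KO, and *Mcpt8*, *Fcer1a*, *Prss34* and *Tpsb2* had no count. Their part in the changes of *Ear2* and *Ang2* was not tested.

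No tested gene outside the family lies inside either cluster. The nearest tested genes on each side were *Prxl2a* and *Ptger2* for the cluster from *Ear1* to *Ear2*, and *Pnp* and *Mettl17* for that from *Rnase4* to *Ear6*. Their log2 fold changes were 0.16, 0.28, 0.10 and 0.062. None of the 4 values was below 0, and *Ptger2*, a prostaglandin E2 receptor gene 884580 bases from the cluster, had an edgeR adjusted p of 0.0381, which was over 0.05 without Ctrl replicate 2 (0.112), AclyM-KO replicate 1 (0.160) or AclyM-KO replicate 3 (0.0870). *Prxl2a* ends 2804932 bases before the first cluster. *Pnp* ends 137665 bases before the second cluster and *Mettl17* starts 30199 bases after it.

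The genes whose 6 log2 CPM values ran most like those of *Rnase4*, among 9812 genes that reached 50 counts throughout, were *Hpse*, *Fam234a* and *Lmbrd2*. Their root mean square distances from it, after centring each gene on its own mean, were 0.014, 0.023 and 0.025 on the log2 scale. *Hpse*, which encodes heparanase, had a log2 fold change of -0.35. For *Ear2* the closest genes were *3110009E18Rik*, *Nfia* and *Gbp8*, at distances of 0.24, 0.24 and 0.27. *Ear2* itself had 15 to 49 counts per library, under the limit of 50. Counting error at such counts widens these distances, so they cannot be compared with those of *Rnase4*.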

How the data were processed

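RNA of 6 IL-4-treated BMDM cultures (3 AclyM-KO, 3 Ctrl) was analysed. The authors made strand-specific mRNA libraries, and the submitters' processing notes name CASAVA 1.8.2 and STAR 2.5.2b with the mm10 genome. The deposited values are unnormalized read counts per RefSeq transcript. The counting program and its settings for strand and multiple alignments were not given in the sources used here. No exon of a member overlaps an annotated exon on the opposite strand.

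Of 35745 rows, 35440 were named through RefSeq (GRCm38.p6) and 188 through GENCODE M21. The 117 rows without a gene, 0.370% to 1.38% of counts, were left out. Each gene was represented by its row with the most counts in all. Replicates were not duplicates: their counts differed by a chi-square of 2.32 to 7.55 per gene. Counts were tested in edgeR 4.0.16 (R 4.3.3; filterByExpr, TMM, glmQLFit, glmQLFTest, genotype only) with Benjamini-Hochberg adjustment over all 12023 genes. The fit was tested on simulated data first. SEs were derived from the F statistic. No pairing of the libraries by replicate number was detected. Alternatives used DESeq2 1.42.0 and limma 3.58.1 (voom), other scalings and filters, other transcript rows and each library left out.

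Named genes were the members, the genes of fixed lists of relatives, binding partners, lysosomal nucleases and cell markers, the nearest tested neighbours, and the 3 genes most like the most abundant gene of each group. Members and lists were chosen with earlier results of these data known.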

Additional observations from a re-analysis of the deposited data

How the results depend on the processing

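Of the members, *Rnase4* kept its direction and an adjusted p under 0.05 in all 15 alternatives, as did the summed *Ang* and *Rnase* genes. *Rnase4* holds most counts of that sum, so the sum largely repeats the *Rnase4* result. Reads of the shared exons also enter it through both *Rnase4* and *Ang*. The alternatives of the sum include 1 without *Rnase4* that was added after seeing the data (-0.26). All 5 tested members kept their direction in every alternative. With DESeq2, 0 members were called lower and 0 higher, although 5 had an unadjusted p under 0.05, and the adjusted p-values were 0.0502 for *Ear2*, 0.0686 for *Ang2*, 0.0545 for *Rnase6* and 0.102 for *Ang*. The summed *Ear* genes stood at -0.84 with DESeq2 (adjusted p = 0.0518). With no fold change limit, 4 members were lower, and 2996 of all tested genes were called against 667. Leaving out each library in turn gave 0 to 1 members lower and 0 to 1 higher, with 4 to 5 members at an unadjusted p under 0.05, and 588 to 667 calls over all genes. The summed *Ear* genes ran from -1.08 to -0.57 in these fits, and *Rnase2a* from -0.029 to 0.073, where its direction turned without Ctrl replicate 3 (-0.0017) or AclyM-KO replicate 2 (-0.029). Adding *Rnase2a* and *Rnase2b* to the *Ear* sum, an alternative chosen after seeing the data, gave 0.0052, since *Rnase2a* holds nearly all counts of that sum. Of the lysosomal list, *Rnaset2a* ran from -0.096 to 0.32 and *Rnaset2b* from -0.14 to 0.32, turning direction in 4 and 2 of the 6 fits.

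Replicate numbers are shared between groups, but deviations of same-numbered libraries correlated at -0.065, 0.050 and -0.031, so no pairing by number was detected. With the replicate number as a block, 652 genes were called, the *Ear* sum was -0.86 (adjusted p = 0.0388), *Ang2* 1.02 (0.0316) and *Ang* -0.27 (0.0631). The low counts of *Ear2* and *Ang2*, 8 to 49 per library, limit the precision of their fold changes.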
